A study of Sus scrofa with 31 samples.

Results

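Complement is a cascade of blood and tissue proteins that tags damaged cells and microbes and can open pores in their membranes. In the classical pathway the recognition protein C1q, built from the A, B and C chains, binds its target and activates the attached proteases C1r and C1s. These cut C4 and C2 to form an enzyme that cleaves C3, the central component on which all activation routes converge. C5 to C9 then assemble the membrane attack complex, and CD55 and CD59 are surface proteins that restrain the cascade on the body's own cells. Tissue macrophages are the main source of C1q, liver makes most circulating C3, and stromal cells of many organs also make C1r, C1s, C3 and C7. Complement is known for its part in the injury that follows when blood flow returns to a heart deprived of oxygen.

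The 7 genes named here as complement components and regulators were C3, C7, C1S, C1QA, C1QB, CD55 and CD59, chosen by gene name. Names were matched in both tables of a study of pig (Sus scrofa) heart preservation, which together listed 34614 gene identifiers. The storage table, with 21313 genes, held 5 of the 7, namely C3, C7, C1S, C1QA and C1QB, and the table of perfused hearts, with 25149 genes, held C3, C7 and C1QA. No row was matched for CD55 or CD59, which were not analysed here.

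In the first arm of the study, myocardium was biopsied at 0, 12, 24 and 48 h of storage from pigs 2, 4 and 6 under HOPE and from pigs 1, 3 and 5 under SCS, which gave 24 libraries from 6 pigs. The labels do not spell out these abbreviations; in heart preservation HOPE usually stands for hypothermic oxygenated perfusion and SCS for static cold storage. In the second arm, biopsies followed 2 h of normothermic machine perfusion (NMP), in which the stored heart is perfused warm: 1 library came after 24 h of SCS, and 2 libraries each came after 3, 24 and 48 h of HOPE. The labels give no breed, age, sex or genotype, and no agent other than the storage mode. They name the cell type as cardiomyocytes, but the material was whole myocardium. Markers of other cells were present in every storage library, including all 10 fibroblast markers and at least 10 of 11 macrophage markers, with only MARCO at 0 in 11 libraries. In such bulk tissue, fewer cells of a type and less RNA per cell cannot be told apart.

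Storage values are the authors' normalized counts, that is, read counts divided by a factor for each library, from 19722065 to 35099406 recovered reads per library. Values after NMP are TPM, which relate transcripts to gene length and to the library total, and for which depth is unknown. Fold changes are on the log2(value + 1) scale, and a gene is called when the limma p-value, adjusted over all tested genes by the Benjamini-Hochberg method, is under 0.05. Differences between pigs are the replicate error of the storage arm. The labels do not say whether NMP libraries with different numbers came from different hearts, so those p-values measure only the spread between libraries. Both arms have a library that stands apart. In the SCS 48 h library of pig 5, mitochondrially encoded genes took 82.4% of the counts, against 29.0% to 62.1% in the other 23 libraries. In the SCS 24 h NMP library, cardiomyocyte markers summed to 2847 TPM, against 41271 to 63040 TPM in the 6 HOPE NMP libraries.

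No complement member was called in any of the 13 comparisons of the storage arm. In those comparisons the share of all 14141 tested genes that was called was 0% for each of the 6 comparisons of a later time with 0 h, for HOPE against SCS at 0 h and for each of the 3 differences in change. For HOPE against SCS it reached 0.0141%, 2.04% and 6.25% as storage lengthened to 12, 24 and 48 h. With the pig as a block, these shares were 0.0424%, 9.87% and 11.5%, and 2.18% for SCS at 48 h against 0 h, again with no member among them. The share at 48 h depended on pig 5, since without its SCS 48 h library 0.0990% of genes were called. Leaving out 1 pig at a time moved the shares to between 0.0141% and 19.2% at 24 h and between 0.0354% and 23.2% at 48 h. At an unadjusted p under 0.05, 2 of the 5 members passed for HOPE against SCS at 12 h (C1QA and C1QB) and 2 at 24 h (C1QA and C7), against 16.3% and 26.8% of all genes, and C7 passed for the difference in change over 24 h, against 1.84%. These p-values treat the 4 libraries of a pig as independent. In limma with the pig as a block, C1QA at 12 h was at an unadjusted p of 0.0488. C1QB at 12 h (0.0577), C1QA at 24 h (0.0539) and C7 at 24 h (0.0594) were no longer under 0.05. The C7 difference in change over 24 h was at 0.0178 with the block (adjusted p = 0.400), against 0.0291 without it. No member reached an unadjusted p under 0.05 in the 6 comparisons of a later time with 0 h. In these, 0.530% to 8.08% of all genes passed at that level. edgeR on the recovered reads called no member. DESeq2 called C7 for HOPE against SCS at 24 h, where it called 1534 of the 14141 tested genes.

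**Figure D1:**
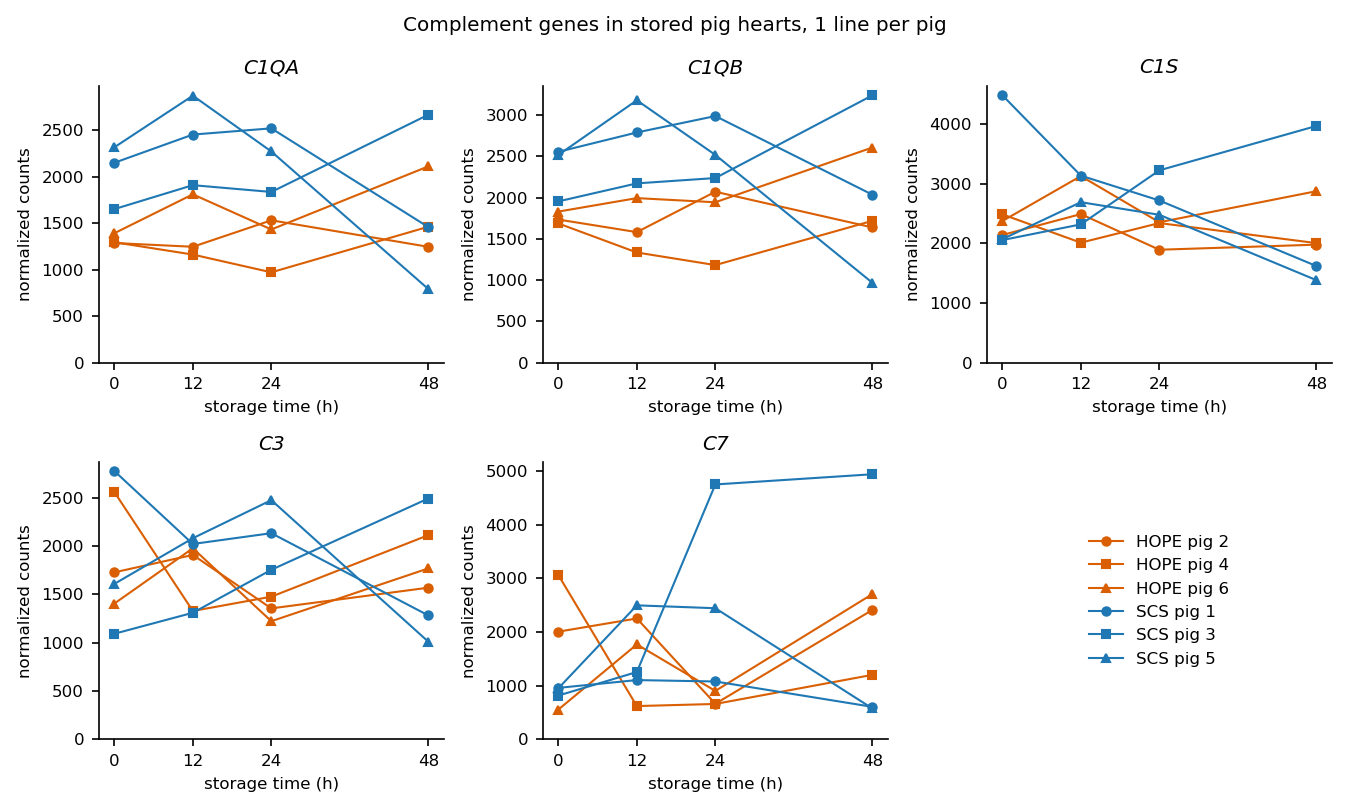
Normalized counts of C1QA, C1QB, C1S, C3 and C7 (vertical axes, from 0) against storage time in hours, with 1 line per pig, orange for HOPE and blue for SCS. The orange C1QA and C1QB lines lie below the blue ones at 0, 12 and 24 h and mix with them at 48 h, and C7 in SCS pig 3 is at 4756 and 4946 at 24 and 48 h.

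C1QA and C1QB encode the A and B chains of C1q. Both were lower in every HOPE heart than in every SCS heart at 0, 12 and 24 h, and the groups overlapped at 48 h. The separation was already present at 0 h, when storage began. At that time C1QA stood at 1288, 1296 and 1393 normalized counts in HOPE pigs 2, 4 and 6, against 2152, 1653 and 2319 in SCS pigs 1, 3 and 5. The HOPE values spanned a narrow range there and all lay below the lowest SCS heart.

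After 12 h of storage C1QA was at 1248, 1164 and 1813 normalized counts in the HOPE pigs, against 2456, 1911 and 2875 in the SCS pigs. At 24 h it was at 1533, 972 and 1434 in the HOPE pigs, against 2523, 1838 and 2274 in the SCS pigs. Pig 4 had the lowest C1QA of the HOPE hearts at both times, and pig 3 the lowest of the SCS hearts. At 48 h the HOPE pigs had 1247, 1463 and 2113 normalized counts, against 1460, 2670 and 792 in the SCS pigs. The SCS hearts had spread apart by then, with the highest C1QA of that time in pig 3 and the lowest in pig 5.

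The fitted C1QA difference, HOPE over SCS, was -0.61 ± 0.32 (SE, adjusted p = 0.665) at 0 h on the log2 scale. It was -0.79 ± 0.32 (adjusted p = 0.267) at 12 h and -0.77 ± 0.32 (adjusted p = 0.137) at 24 h, and 0.11 ± 0.32 (adjusted p = 0.854) at 48 h. None passed the threshold, and an exact two-sided permutation test of 3 against 3 pigs gave p = 0.1 at 0, 12 and 24 h, the smallest it can give, and 0.9 at 48 h. Groups that do not overlap, with HOPE lower, were also found for 6.19%, 12.0%, 12.9% and 10.2% of all tested genes, taking the 4 times in order. The 48 h value depended on single pigs. Without the SCS 48 h library of pig 5 it was -0.33, which is the direction of the earlier times. Leaving out pig 3 instead moved it the other way, to 0.54. With all libraries kept, edgeR and DESeq2 on the recovered reads gave small negative values.

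C1QB followed the same order. At 0 h it averaged 1750 ± 73.2 normalized counts in HOPE hearts and 2341 ± 336 in SCS hearts (SD, n = 3 each). At 12 h the averages were 1636 ± 333 in HOPE hearts and 2713 ± 508 in SCS hearts, and at 24 h 1731 ± 481 in HOPE hearts and 2580 ± 380 in SCS hearts. The lowest SCS heart was above the highest HOPE heart at each of these times, with the smallest gap at 0 h, where the highest HOPE heart had 1830 and the lowest SCS heart 1953. Fitted log2 differences, HOPE over SCS, at these 3 times were -0.41, -0.73 and -0.61, each ± 0.32 (SE), and adjusted p was 0.700, 0.277 and 0.218. At 48 h C1QB averaged 1987 ± 537 in HOPE hearts and 2080 ± 1136 in SCS hearts, a log2 difference of 0.07 ± 0.32 (adjusted p = 0.911). Without the SCS 48 h library of pig 5 that difference was -0.40, and leaving out 1 pig at a time moved it between -0.40 and 0.47.

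**Figure D2:**
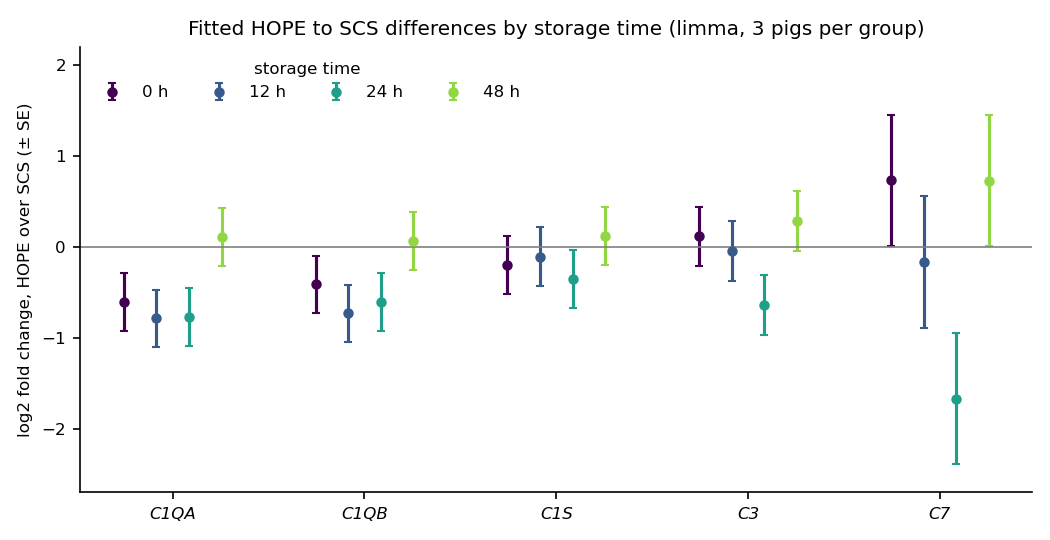
Fitted log2 fold change, HOPE over SCS, for each storage gene (horizontal axis) at 0, 12, 24 and 48 h (colours), with bars of 1 SE from limma on 3 pigs per group. The 24 h points lie below 0 for all 5 genes, though C1S is at 0.031 when libraries are scaled to the same total, and the C7 bars are the longest.

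Over time within a storage mode, no change of the C1q chains was called on the authors' scaling. At 12 h all 3 SCS hearts had more of both than at 0 h, which was so for 18.4% of all tested genes. The log2 changes were close together, at 0.19, 0.21 and 0.31 for C1QA and 0.13, 0.15 and 0.34 for C1QB in pigs 1, 3 and 5. The fitted C1QA change was 0.24 ± 0.32 (SE, adjusted p = 1.00), and with the pig as a block it was 0.24 ± 0.30 (adjusted p = 0.926). In HOPE at 12 h single hearts differed in direction, with C1QA at -0.05, -0.16 and 0.38 in pigs 2, 4 and 6. At 48 h hearts differed in direction in both modes. In HOPE at 48 h against 0 h the log2 change of C1QA was 0.24 ± 0.32 (SE, adjusted p = 1.00), with single hearts at -0.05, 0.17 and 0.60. In SCS it was -0.47 ± 0.32 (adjusted p = 0.736), with -0.56 in pig 1, 0.69 in pig 3 and -1.55 in pig 5. The difference between these changes, HOPE minus SCS, was 0.72 ± 0.45 (adjusted p = 0.988). For C1QB the changes were 0.15 ± 0.32 in HOPE and -0.33 ± 0.32 in SCS, and their difference was 0.48 ± 0.45, with adjusted p of 1.00, 0.841 and 0.988.

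The genes of the A, C and B chains lie in that order on chromosome 6 of the Sscrofa11.1 build, per the RefSeq gene table: C1QA at 80586259 to 80589213, C1QC at 80592591 to 80597464 and C1QB at 80601680 to 80606076. Counts of C1QA and C1QB moved almost in parallel. The C1QB to C1QA ratio of normalized counts stayed between 1.08 and 1.39 over the 24 libraries, a 1.29-fold span, while each gene by itself ranged over 3.63-fold (C1QA) and 3.35-fold (C1QB). C1QC, a gene outside the 7, had a ratio to C1QA of 0.901 to 1.61, a 1.78-fold span. Its storage groups were apart at 0 and 12 h, with HOPE lower. At 24 h C1QC was at 2182, 1561 and 1953 normalized counts in HOPE pigs 2, 4 and 6. It was at 2713, 2106 and 2049 in SCS pigs 1, 3 and 5, so the groups overlapped. The log2 difference, HOPE over SCS, was -0.27 ± 0.32 at 24 h (SE, limma adjusted p = 0.592). By Pearson correlation of log2 values over the 24 libraries, among 9265 genes with a mean of at least 100, the genes most like C1QA were C1QB (r = 0.98), C1QC (0.91) and CST3 (0.85), which encodes the protease inhibitor cystatin C. For C1QB they were C1QA, C1QC (0.92) and CST3 (0.85). The 4 libraries of a pig share that animal, so these values only describe the libraries.

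**Figure D3:**
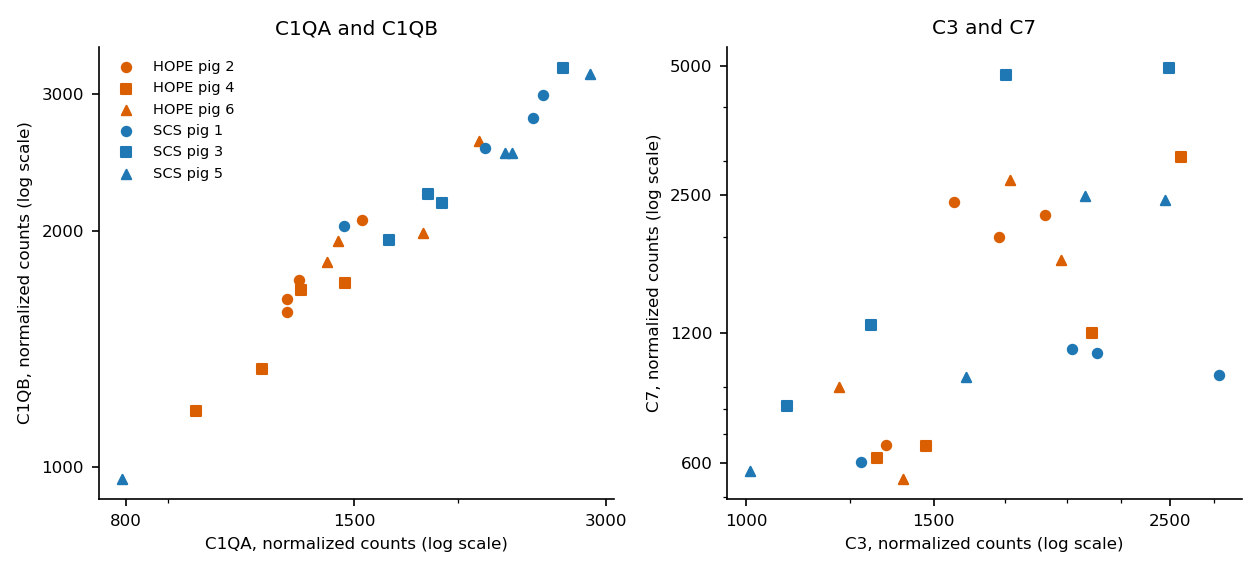
Normalized counts per library on logarithmic axes, with C1QB against C1QA on the left and C7 against C3 on the right; orange marks HOPE, blue SCS, and marker shapes the pigs. C1QA and C1QB fall along a line, with ratios between 1.08 and 1.39, whereas the C7 to C3 ratio runs from 0.345 to 2.71.

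Macrophage markers did not show the same split, while several other marker lists were lower in HOPE and erythroid markers were higher. The sum of 11 macrophage markers was 4254 to 5393 normalized counts in HOPE hearts and 4114 to 5564 in SCS hearts at 0 h. It was 4709 to 5194 in HOPE hearts and 5074 to 5378 in SCS hearts at 12 h, and 4288 to 6595 in HOPE hearts and 4205 to 5390 in SCS hearts at 24 h. At each of these times the groups overlapped, and none of the 10 tested markers was called. Relative to that sum, a ratio computed after these values were seen, C1QA was at 22.7% to 34.9% in the 12 HOPE libraries (median 25.0%) and at 29.9% to 55.2% in the 12 SCS libraries (median 40.0%). The lowest SCS share was that of a 48 h library; at 0 h the shares were 23.9% to 32.7% in HOPE hearts and 38.7% to 52.5% in SCS hearts. At 48 h the SCS library of pig 5 was lowest in both C1QA and the marker sum, which was 2646 there, against 5259 to 6577 in HOPE hearts.

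Other marker sums did separate the storage modes at times when C1QA and C1QB did, with HOPE lower except for erythroid markers. The sum of 10 T and natural killer cell markers was 324 to 427 normalized counts in HOPE hearts and 931 to 1476 in SCS hearts at 12 h, and 376 to 453 in HOPE hearts and 919 to 2137 in SCS hearts at 24 h. At 24 h 3 of these 10 (NKG7, GNLY and GZMB) were called lower in HOPE. The split remained at 48 h, with 271 to 471 in HOPE hearts and 841 to 1322 in SCS hearts, while at 0 h the groups overlapped. Adipocyte markers summed to 1233 to 3909 in HOPE hearts and 6429 to 9027 in SCS hearts at 12 h, and to 1834 to 4138 in HOPE hearts and 5153 to 10362 in SCS hearts at 24 h. Endothelial markers were apart at 12 h, with 17258 to 34463 in HOPE hearts and 36860 to 51510 in SCS hearts, and mural cell markers at 24 h, with 17944 to 20184 in HOPE hearts and 23671 to 36576 in SCS hearts. None of these other 3 lists had a marker called at 12 or 24 h. With each library scaled to the same total, the median difference was still negative for each of these 4 lists at 12 and 24 h, but near 0 for mural cell markers (-0.0015 and -0.015). Erythroid markers summed to 314 to 367 in HOPE hearts and 42.5 to 72.0 in SCS hearts at 12 h. At 24 h they summed to 128 to 2329 in HOPE hearts and 53.5 to 93.2 in SCS hearts. Mesothelial markers were apart at 12 h, with 62.3 to 90.9 in HOPE hearts and 108 to 223 in SCS hearts. The part of these cell types in the complement values was not tested.

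**Figure D4:**
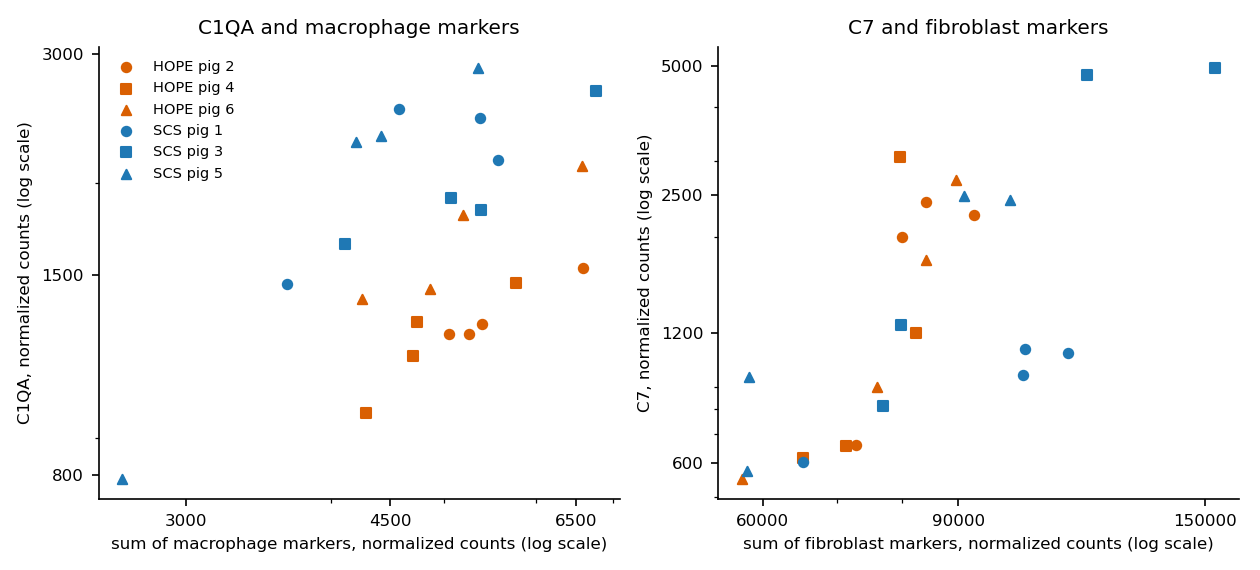
Each storage library placed by a sum of marker genes (horizontal, logarithmic) and a complement gene (vertical, logarithmic), in normalized counts, with C1QA against macrophage markers on the left and C7 against fibroblast markers on the right. At like macrophage sums most HOPE libraries (orange) lie below most SCS libraries (blue) in C1QA, and the pair of libraries highest in C7 are SCS pig 3 at 24 and 48 h, which are also highest in fibroblast markers.

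C1S encodes the protease that cuts C4 and C2. It had the lowest spread of the 5 members, with an SD over the 24 libraries of 0.38 on the log2 scale, against a median of 0.43 for all tested genes. Within pigs its SD was 0.37, against a median of 0.28 for all tested genes, so on that measure it varied more than the typical gene. At 24 h C1S had 1892, 2339 and 2353 normalized counts in HOPE pigs 2, 4 and 6, against 2718, 3224 and 2478 in SCS pigs 1, 3 and 5. The groups did not overlap at that time but the gap between them was small, and the log2 difference, HOPE over SCS, was -0.35 ± 0.32 (SE, adjusted p = 0.480). At 0 h the groups overlapped, with 2140 to 2486 in HOPE hearts and 2055 to 4483 in SCS hearts, and pig 1 held the highest value of all. C1S in SCS at 48 h against 0 h differed in direction between hearts, at -1.47 in pig 1, 0.95 in pig 3 and -0.58 in pig 5. The fitted change was -0.37 ± 0.32 (adjusted p = 0.818), and 0.18 without pig 1.

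The 3 genes most like C1S over the 24 libraries were PCOLCE2 (r = 0.87), which encodes an enhancer of collagen processing, C1R (0.84), its partner protease, and C4A (0.81), the component that C1s cuts. C1R and C1S are neighbours on chromosome 5, at 63644097 to 63655149 and 63670309 to 63681466. Their ratio was looser than that of C1QB to C1QA, at 0.621 to 1.22 for C1S over C1R. The lowest value was that of the SCS 48 h library of pig 5, and the next lowest was 0.805.

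C3, the component at which the pathways meet, separated the storage modes at 24 h only. It had 1354, 1475 and 1221 normalized counts in HOPE pigs 2, 4 and 6 at 24 h, against 2133, 1754 and 2475 in SCS pigs 1, 3 and 5. Every HOPE heart was below every SCS heart, with a log2 difference of -0.64 ± 0.33 (SE, adjusted p = 0.212). At 0 h the ranges were 1404 to 2559 in HOPE hearts and 1091 to 2776 in SCS hearts. They were 1327 to 1976 in HOPE hearts and 1308 to 2080 in SCS hearts at 12 h, and 1568 to 2112 in HOPE hearts and 1009 to 2492 in SCS hearts at 48 h. The groups overlapped at each of those times, and the wide SCS range at 48 h had pig 3 at the top and pig 5 at the bottom.

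The log2 change of C3 from 0 to 24 h was -0.35, -0.79 and -0.20 in the HOPE hearts. Under SCS it was -0.38 in pig 1, 0.68 in pig 3 and 0.62 in pig 5. The fitted change was -0.45 ± 0.33 (SE) in HOPE and 0.31 ± 0.33 in SCS, and the difference between them, HOPE minus SCS, was -0.76 ± 0.46; adjusted p was 0.999, 0.999 and 1.00. The genes most like C3 over the 24 libraries were PID1 (r = 0.76), C4A (0.76) and LTBP2 (0.75), a matrix protein of the latent TGF-beta binding protein family. C3 lies on chromosome 2 at 72431470 to 72471622.

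C7 encodes a component of the membrane attack complex and lies on chromosome 16 at 25846860 to 25902707. It varied more than any other member, from 551 to 4946 normalized counts, an 8.97-fold range. Its SD within pigs was 1.00 on the log2 scale, above that of 97.4% of tested genes, while C3, C1S, C1QA and C1QB were between 0.37 and 0.44 on the same measure, also above the median. In HOPE pigs 2, 4 and 6 it stood at 2006, 3063 and 551 at 0 h and at 2253, 617 and 1768 at 12 h. In the same pigs it stood at 659, 656 and 900 at 24 h and at 2411, 1199 and 2707 at 48 h. The HOPE hearts thus had no common level at 0 or 12 h, were all low at 24 h, and were all higher again at 48 h.

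In SCS pigs 1, 3 and 5, C7 stood at 957, 813 and 948 at 0 h and at 1102, 1253 and 2498 at 12 h. The values were 1076, 4756 and 2444 at 24 h and 602, 4946 and 573 at 48 h. The SCS hearts started close together and separated with time, with pig 3 alone at the top from 24 h.

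At 24 h every HOPE heart had less C7 than every SCS heart, and the averages were 738 ± 140 and 2759 ± 1860 normalized counts (HOPE and SCS hearts, SD, n = 3 each). The log2 difference, HOPE over SCS, was -1.67 ± 0.72 (SE, adjusted p = 0.151), and -1.15 without pig 3. DESeq2 on the recovered reads gave -1.91 with an adjusted p of 0.0474, and edgeR gave -1.90 with 0.114, so the call depended on the tool. In that comparison DESeq2 called 1534 of 14141 tested genes and limma 288. The change from 0 to 24 h was -1.04 ± 0.72 in HOPE (-1.60, -2.22 and 0.71 in pigs 2, 4 and 6) and 1.36 ± 0.72 in SCS (0.17, 2.55 and 1.36 in pigs 1, 3 and 5). The SCS rise was small in pig 1, and HOPE pig 6 changed in the other direction from pigs 2 and 4. The difference between these changes, HOPE minus SCS, was -2.40 ± 1.02, with an unadjusted p of 0.0291 and an adjusted p of 1.00.

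As a sum, fibroblast markers were, like C7, lower in every HOPE heart than in every SCS heart at 24 h. The sum of all 10 was 71216 to 76023 normalized counts in HOPE hearts and 100058 to 117577 in SCS hearts, and 2 of the 10, TCF21 and MFAP5, were called lower in HOPE, as were 0.771% of all genes. In SCS pig 3 the marker sum was 77014, 79899, 117577 and 153307 at 0, 12, 24 and 48 h, and none of the 10 was at 0 in any library. The other SCS hearts did not share an order at 24 h: the sum was 112976 in pig 1 with C7 at 1076, and 100058 in pig 5 with C7 at 2444. The part of fibroblast content in the C7 values was not tested. The genes most like C7 over the 24 libraries were SRPX (r = 0.82), SFRP1 (0.81), an antagonist of Wnt signalling, and CHRDL1 (0.80), an antagonist of bone morphogenetic proteins. In SCS pig 3 SFRP1 was at 286, 445, 1024 and 1008 at 0, 12, 24 and 48 h.

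At 24 h the HOPE and SCS groups were apart, with HOPE lower, for all 5 members of the storage table, against 12.9% of all tested genes. The members were chosen with earlier results of these data known, so this count only describes them. The members' log2 differences ran from -0.35 to -1.67 with a median of -0.64, beside a median of 0.01 over all genes. The 5 are not independent of each other: the pairwise r of their log2 values over the 24 libraries ran from 0.41 (C7 and C1QA) to 0.98 (C1QA and C1QB). Scaling each library to the same total moved the 24 h median of all genes to 0.39. Under it 4 of the 5 members had negative differences at 24 h, with a median of -0.26, and C1S was at 0.031. The 48 h values depended more on the scaling. The same total for each library moved the median of all genes to 1.12 for HOPE over SCS at 48 h, and all 5 members were called higher in HOPE, as 57.4% of all genes were called. The same scaling called 3 members (C1QA, C1QB and C1S) lower in SCS at 48 h than at 0 h, where it called 39.5% of all genes. With totals taken without the mitochondrially encoded genes, that median was 0.08 and no member was called.

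Of 46 other complement genes, 34 were found in the storage table and 29 were tested. For HOPE against SCS at 48 h, 2 were called, both higher in HOPE, against 3.84% of all genes called in that direction. One was ITGAM, which encodes a chain of the leukocyte receptor for C3 fragments; the table of perfused hearts gives the same identifier the name ITGAX, so the name is uncertain. It had 289, 302 and 291 normalized counts in HOPE hearts and 182, 120 and 99 in SCS hearts at 48 h, a log2 difference of 1.18 ± 0.24 (SE, adjusted p = 0.0167). The other was COLEC12, a scavenger receptor of the collectin family, with 536, 349 and 506 in HOPE hearts and 261, 268 and 82 in SCS hearts, a difference of 1.34 ± 0.39 (adjusted p = 0.0463). The groups did not overlap for either gene, and without the SCS 48 h library of pig 5 neither passed, at 0.99 (adjusted p = 0.0931) for ITGAM and 0.78 (adjusted p = 0.232) for COLEC12. Neither passed without pig 2, pig 3, pig 4 or pig 5, and COLEC12 not without pig 6, with adjusted p reaching 0.156 for ITGAM and 0.284 for COLEC12. With the pig as a block, C3AR1, the receptor for the C3a fragment, was also called at 48 h, at 1.80 ± 0.58 (adjusted p = 0.0463), and ITGAM was lower in SCS at 48 h than at 0 h, at -0.91 ± 0.19 (adjusted p = 0.0257).

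A list of receptors and binding proteins among them held 8 tested genes: C3AR1, C5AR1, C5AR2, ITGAM, ITGB2, VSIG4, CD93 and C1QBP. All 8 had negative log2 changes in SCS at 48 h against 0 h, the smallest at -0.23 for C1QBP and -0.38 for CD93. Their median was -0.79, beside -0.03 over all genes, of which 52.8% were negative. In HOPE 4 of 8 had negative changes, with a median of -0.01. None of these changes was called without the block. Hearts differed in direction: in SCS pig 3, C3AR1 was at 0.10, C5AR1 at 0.32 and VSIG4 at 0.39. Without the SCS 48 h library of pig 5 the SCS median was -0.48, with 7 of 8 negative. Macrophage markers also differed in direction between the SCS hearts. Their sum at 48 h was 3664 in pig 1, 6761 in pig 3 and 2646 in pig 5, beside 5564, 4114 and 4414 in these pigs at 0 h. Of the 10 tested markers 8 had negative changes, with a median of -0.20, and 3 of 10 did so without that library. The part of macrophage content in the receptor values was not tested. Of the 5 tested regulators, 4 had negative log2 differences, HOPE over SCS, already at 0 h. These were -1.04 ± 0.88 (SE) for CLU, -0.95 ± 0.54 for CFI, -0.46 ± 0.76 for C4BPA and -0.26 ± 0.23 for SERPING1, while VTN was at 0.19 ± 0.31. The groups overlapped for CLU, with 12850 normalized counts in HOPE pig 4 against 4982 to 8790 in SCS hearts. The same 4 were negative at 12 and 24 h. The list's median was -0.46, -0.42 and -0.61 at 0, 12 and 24 h, beside -0.02, 0 and 0.01 over all genes, with no call. With each library scaled to the same total, 4, 2 and 3 of the 5 were negative at these times. SERPING1, the inhibitor of C1r and C1s, had a difference of -0.64 ± 0.23 (SE, adjusted p = 0.0948) at 24 h.

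After NMP, values were per length and could be ordered between genes: in all 7 libraries C1QA was highest in TPM, C7 was next and C3 was lowest of the 3. In the SCS 24 h library C1QA was at 137.7 TPM. In the HOPE libraries it was at 94.7 and 53.0 TPM after 3 h, at 41.1 and 89.3 after 24 h and at 74.9 and 74.6 after 48 h. C7 was at 59.1 TPM in the SCS library, and at 17.7 and 9.67 TPM after 3 h, 17.5 and 8.68 after 24 h and 22.8 and 7.01 after 48 h in the HOPE libraries. C3 was at 12.3 TPM in the SCS library, and at 3.76 and 3.73 after 3 h, 5.67 and 6.72 after 24 h and 4.68 and 2.98 after 48 h in the HOPE libraries. The SCS library was above all 6 HOPE libraries for each of the 3 genes, which was so for 11.6% of the 10986 genes with a mean of at least 1 TPM, while 49.4% lay below all 6.

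**Figure D5:**
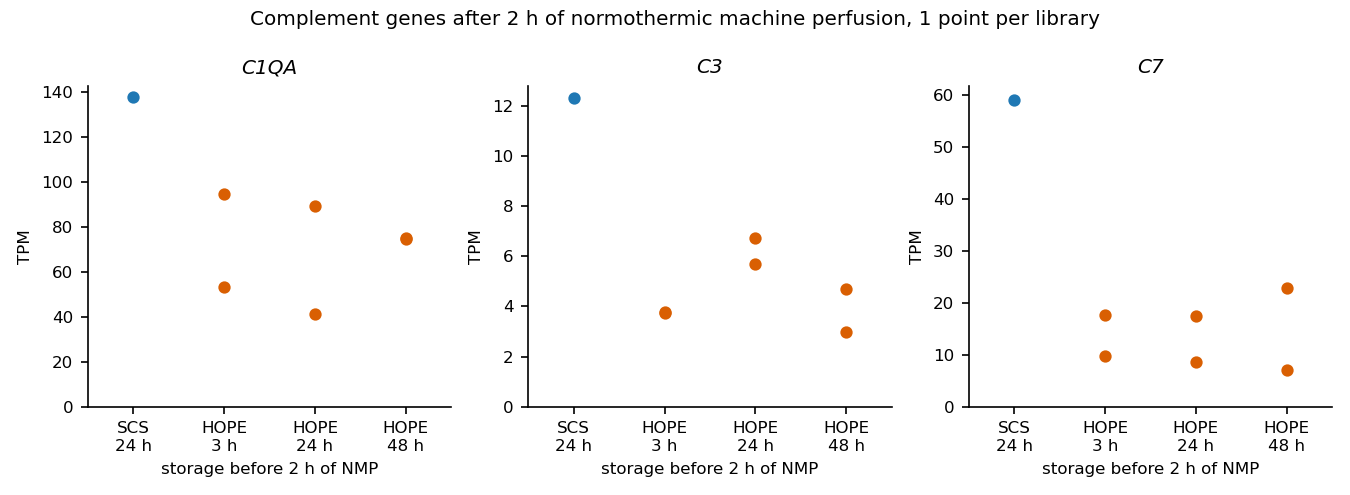
TPM of C1QA, C3 and C7 (vertical axes, from 0) after 2 h of NMP, with 1 point per library, by storage before perfusion (horizontal axis), blue for SCS and orange for HOPE. The single SCS point is above the 6 HOPE points in each panel, at 137.7, 12.3 and 59.1 TPM.

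For SCS 24 h against HOPE 24 h, C7 was 2.17 ± 0.68 higher on the log2 scale (SE, adjusted p = 0.0292) and was the only called member; 54.2% of all tested genes were called, 2.42% as higher, and the median of all genes was -1.12. C1QA had a difference of 1.17 ± 0.53 (adjusted p = 0.0925). C3 had a mean under 10 TPM and was not in that fit; with a minimum mean of 1 TPM its difference was 0.89 ± 0.35 (adjusted p = 0.0956). The SCS group was 1 library, assumed to vary like the others, and the C7 call was lost with a minimum mean of 1 TPM (adjusted p = 0.0573), with no filter on low values (0.159) and without HOPE 24 h replicate 2 (difference 1.70, adjusted p = 0.0970).

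The SCS NMP library also differed in its marker genes. All 7 tested cardiomyocyte markers were called lower than after HOPE 24 h, and 4 of 5 tested fibroblast markers were called higher. Fibroblast markers summed to 2753 TPM in it and to 570 to 1222 TPM in the HOPE libraries, while macrophage markers summed to 158 TPM in it and to 103 to 191 TPM in the HOPE libraries. The SCS library was also above all 6 HOPE libraries for erythroid markers (6161 TPM, against 34.2 to 3125), T and natural killer cell markers (89.0 TPM, against 16.3 to 57.0) and mural cell markers (489 TPM, against 268 to 387). For endothelial markers it was below all 6, at 167 TPM, against 170.5 to 443. The part of these differences in the C7, C1QA and C3 values was not tested. Of the 5 other complement genes tested after NMP, SERPING1 was called higher in the SCS library (247 TPM, against 110.6 and 107 after HOPE 24 h), while 2 were called lower. These were CLU, encoding the chaperone and complement inhibitor clusterin (22.5 TPM, against 114 and 254), and CD93, an endothelial and myeloid surface protein (11.9 TPM, against 31.2 and 41.9). The log2 differences, SCS over HOPE 24 h, were 1.18 ± 0.41 (SE, adjusted p = 0.0395) for SERPING1, -2.87 ± 0.81 (adjusted p = 0.020) for CLU and -1.53 ± 0.47 (adjusted p = 0.0259) for CD93, beside the median of -1.12 over all genes, and 51.8% of all genes were called lower. Without HOPE 24 h replicate 2 none of the 3 passed, with adjusted p of 0.146, 0.0654 and 0.106, and SERPING1 did not pass without replicate 1 either (0.126).

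Among the HOPE libraries after NMP no member was called by limma between storage times, nor did any reach an unadjusted p under 0.05. For 24 h and for 48 h against 3 h, 0% of all genes were called, and 15.1% and 8.07% had an unadjusted p below that level. The share called for 48 h against 24 h was 0.0684%. The log2 change of C7 against 3 h was -0.08 ± 0.56 (SE) at 24 h and -0.03 ± 0.56 at 48 h. For C1QA it was -0.22 ± 0.44 at 24 h and 0.08 ± 0.44 at 48 h. C3, in the fit with a minimum mean of 1 TPM, had the largest change of the 3 genes, at 0.60 ± 0.29 (SE, adjusted p = 0.405 in limma) at 24 h against 3 h. The median of all genes in that comparison was 0.22 in the fit with a minimum mean of 10 TPM. For C3 the change at 48 h against 3 h was 0.0038 ± 0.29. The spread between the 2 libraries of a group was larger than the change for C7 and C1QA at 24 h, and for C7 at 48 h. At 3 and 24 h after HOPE the C1QA values of a pair differed more than those of C3, which were close at 3 h.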

How the data were processed

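RNA of 24 stored and 7 perfused pig myocardium samples was sequenced. The deposited storage table holds a signal, normalized counts, per the file header; since every value (100%) was a whole number of steps, with a step fixed for each library (tolerance 1e-06), read counts could be recovered. The deposited NMP table holds TPM made by the authors, read from column totals of 1000000, although the design assumed normalized counts; 11 further columns, of no sample analysed here, were left out. The submitters' processing notes list the aligners STAR 2.5.2b and HISAT2 2.2.1, the counters featureCounts 2.0.6 and Subread 1.5.2, and DESeq2, on build Sscrofa11.1, and tie none of them to an arm. Storage libraries used a stranded poly(A) kit and NMP libraries another with spike-in RNA, per the labels' protocols; strand use in counting is not stated there, so antisense reads cannot be told apart. Tests were kept within an arm.

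Each arm was fitted with limma 3.58.1 (R 4.3.3; trend) on log2(value + 1), for genes with a mean of at least 10 (14141 and 4388), over all its libraries, with Benjamini-Hochberg adjustment within a comparison. Residual degrees of freedom were 16 and 3. The pseudocount understates changes of low genes. Alternatives were other pseudocounts (0.5 and 5), filters and scalings, edgeR 4.0.16 and DESeq2 1.42.0 on recovered reads, the pig as a block, fits on only the libraries compared, and leaving out pigs or libraries. Same-pig libraries deviated together in all 36 pairs (r of 0.232 to 0.73), so pig numbers pair the storage libraries; the block was a fixed term within pigs and a random term (correlation 0.44) between storage modes. The fitting was tested on simulated data. All members were named, and of the other complement genes those that passed. The 3 genes most like a member were those with the highest r. Members and gene lists were chosen with earlier results of these data known.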

Additional observations from a re-analysis of the deposited data

How the results depend on the processing

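Of 532 alternative fits of the 30 member values given one by one, 495 kept direction and side of the threshold and 27 turned sign, all of them values that had not passed; the cause was not tested. For HOPE over SCS at 48 h, C1QA was -0.030 with edgeR, -0.037 with DESeq2, -0.33 without the 48 h library of pig 5 and -0.33 to 0.54 without 1 pig at a time. C1QB was -0.053 with quantile normalization, -0.066 with edgeR, -0.073 with DESeq2, -0.40 without that library and -0.40 to 0.47 without 1 pig at a time. Leaving out 1 pig at a time, the SCS change over 48 h was -1.05 to 0.065 for C1QA, -0.85 to 0.20 for C1QB (0.14 without only the 48 h library of pig 5) and -1.02 to 0.18 for C1S, the HOPE change of C1QB was -0.028 to 0.27, and the C1QB difference in change was -0.049 to 1.00. Total-count scaling gave -0.036 for C3 in SCS at 24 h and 0.031 for C1S in HOPE over SCS at 24 h. After NMP, leaving out 1 library at a time gave -0.77 to 0.33 for C1QA at 24 h against 3 h of HOPE and -0.34 to 0.49 at 48 h (0.19 and 0.33 at 24 h without 3 h replicate 1 and 24 h replicate 1). For C7 it gave -0.54 to 0.39 at 24 h and -0.82 to 0.76 at 48 h, where a pseudocount of 5 gave 0.0038.

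Members called numbered 3 for SCS at 48 h against 0 h and 5 for HOPE over SCS at 48 h under total-count scaling, which moved the median of all genes to -0.99 and 1.12, and 1 (C7) for HOPE over SCS at 24 h with DESeq2. For SCS over HOPE 24 h after NMP, with 1 member called, the count was 0 without a filter and with a minimum mean of 1, 2 with quantile normalization, and 0 to 1 when leaving out 1 replicate at a time. Leaving out 1 pig at a time gave 0 members called in all storage comparisons. The replicate block changed no member's call; for C7 the difference in change over 24 h was -2.40 ± 0.92 with it (adjusted p = 0.400). In the NMP arm equal numbers had r of 0.09 to 0.384 in 6 pairs, which cannot decide whether they pair; a block on them called 30 genes at 24 h and 24 at 48 h against 3 h, none a member, in place of 0 each, and could not be fitted for the lone SCS library. Calls over all genes for HOPE over SCS at 24 h numbered 288, 1534 with DESeq2, 1396 with the block, 3 with total-count scaling and 0 in a fit on only those libraries; at 48 h they numbered 884, 1931, 1628, 8112 and 0, and 14 without the SCS 48 h library of pig 5. With 3 pigs per group, and 1 SCS library after NMP, small differences could not be resolved.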

Other observations

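CLU, which encodes clusterin, an inhibitor of the membrane attack complex, differed widely between hearts. In HOPE pig 4 it was at 9712 to 13730 normalized counts at all 4 times, against 1140 to 3142 in HOPE pigs 2 and 6. In SCS pig 1 it was at 4982, 5800, 10604 and 10979 at 0, 12, 24 and 48 h. It was at 8790 to 12015 in SCS pig 3 and at 5870 to 6768 in SCS pig 5. Whether CLU differed more between hearts than between storage times was not tested. The terminal components C6 and C9 lie on the same chromosome as C7, at 26023646 to 26089518 and 24521318 to 24575939 of chromosome 16, and were at 0 to 13.2 and 5.24 to 36.4 normalized counts over the 24 libraries.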
